A study of Homo sapiens with 4 samples.

Results

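A set of 9 genes tied to the tumour suppressor p53 were followed after ANP32B knockdown in MV4-11, a human acute myeloid leukemia (AML) cell line. The genes were chosen by name, with earlier results of these data known: MDM2, MDM4, AEN, SESN1, SESN2, ZMAT3, TP53INP1, PHLDA3 and FAS. Of the 9 genes, 7 had a row among the 18885 genes of the expression table, while TP53INP1 and PHLDA3 were not analysed here. Gene expression was measured by bulk RNA-seq in 2 control libraries (sh-NC) and in 2 others from MV4-11 cells that carry an shRNA against ANP32B (sh-ANP32B). The labels describe the control cells as untreated and list no shRNA for them, whereas the methods of the study name an sh-NC control, and that name is used here. The knockdown cells were made with lentivirus and selected with puromycin as stable lines, and nothing in the labels says whether the libraries of a group came from separate cultures. The p-values therefore measure the spread between these libraries, which may be technical. If the control cells carried no shRNA, an effect of transduction and selection cannot be told apart from the loss of ANP32B.

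p53 is a transcription factor that is kept low in unstressed cells and is stabilised by DNA damage and other stress. MDM2 is the ubiquitin ligase that marks p53 for degradation and is itself a p53 target, which closes a feedback loop, and its relative MDM4 (also called MDMX) binds p53 and blocks its activity. Many p53 targets act outside the mitochondrial death pathway, in cell cycle arrest, DNA repair, metabolism and RNA control, and it is this side of the response that most of the 9 genes stand for. AEN and FAS are exceptions, since AEN encodes a nuclease named for its link to apoptosis and FAS encodes a death receptor. ANP32B has been described as an inhibitor of p53 activity in other blood cells, which gives the reason to look at these genes.

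The values are in TPM, a unit that corrects reads for transcript length and for library size, so levels can be set side by side between genes. TPM keep no read numbers, and the depth and the counting error are unknown. Groups were compared with limma on log2(TPM + 1) over 16937 genes, those that reached 1 TPM in 2 or more libraries, and all log2 fold changes (log2FC) below are sh-ANP32B against sh-NC on that scale. A gene passed the test at a Benjamini-Hochberg adjusted p below 0.05 over all genes, and it was called higher or lower where its log2FC was also beyond 0.5 in that direction, the fold limit of the study. ANP32B itself had 358 and 364 TPM in the controls and 54.1 and 49.3 TPM in the knockdown, which left 14.3% of the control mean (log2FC -2.78, standard error (SE) 0.056, limma adjusted p = 2.89e-05). Genes known from AML lines of this kind were all present, with a summed level of 895 and 899 TPM in the controls and 1054 and 1063 TPM in the knockdown. Of these 7 genes, PTPRC (1.15) and SPI1 (0.51) were called higher and MEIS1 (-0.61) lower, while MYB (-0.08) and HOXA9 (-0.07) were not called. SPI1 was not called after median-of-ratios scaling, at 0.41. Monocyte genes moved with the groups. Of the 10 listed, 8 were tested and 7 were called higher, led by LYZ (3.50), TYROBP (3.38) and ITGAM (2.58). Their summed level was 569 and 559 TPM in the controls and 5995 and 5962 TPM in the knockdown. CD14 and CD163 of that list were not analysed here. Of 10 markers of other lineages, 2 were tested, and PECAM1 was called higher at 1.27. The part of this shift in the values below was not tested. In bulk RNA, a change in the share of cells of a kind and a change in RNA per cell cannot be told apart.

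The p53 genes did not move as a group. AEN was called lower and ZMAT3 was called higher, so 1 of the 7 genes was called in each direction. Over all genes tested, 10.1% were called lower and 17.9% were called higher, or 28.0% in either direction. SESN2 fell and MDM4 rose by less than the fold limit, both with an adjusted p below 0.05. With no fold limit, 2 of the 7 genes were thus lower and 2 were higher, against 19.7% and 26.0% of all genes. MDM2, SESN1 and FAS did not pass the test. In 5 of the 7 genes both libraries of one group lay above both libraries of the other, and this was so for 74.7% of all genes. The median log2FC of the 7 genes was 0.12, beside 0.08 for all genes tested.

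**Figure D1:**
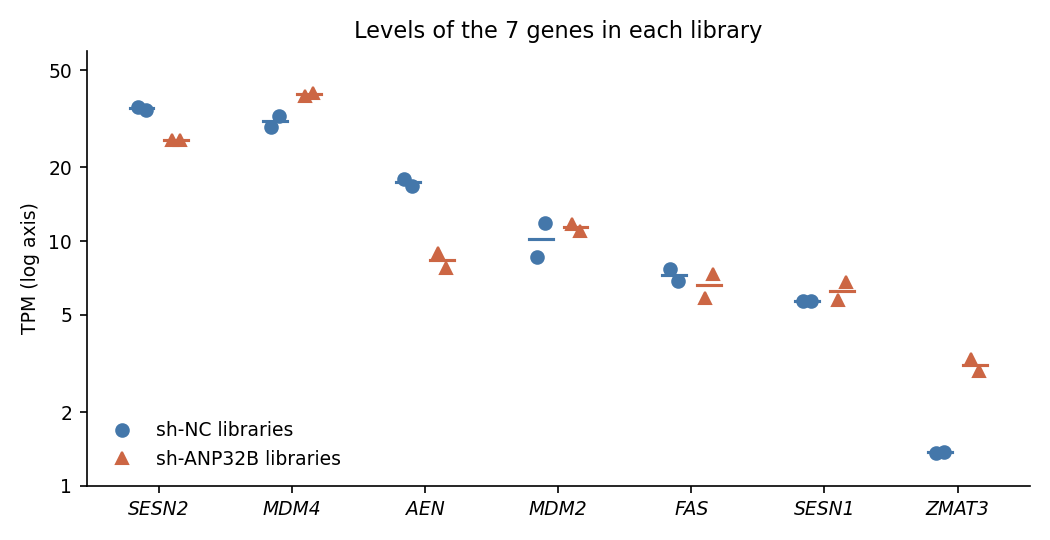
Levels of the 7 genes in each library, in TPM on a log axis; circles are the 2 sh-NC libraries, triangles the 2 sh-ANP32B libraries, and short lines the group means. AEN and SESN2 sit lower and MDM4 and ZMAT3 sit higher in both sh-ANP32B libraries, whereas the groups overlap for MDM2 and FAS.

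The levels of the 7 genes in the controls ran from a mean of 1.37 TPM for ZMAT3 to 34.9 TPM for SESN2. In descending order the sh-NC means were 34.9 TPM for SESN2, 30.9 TPM for MDM4, 17.4 TPM for AEN, 10.2 TPM for MDM2, 7.25 TPM for FAS, 5.68 TPM for SESN1 and 1.37 TPM for ZMAT3. The control libraries of neighbours in this order did not overlap. The gap from the lowest SESN2 library (34.4 TPM) to the highest MDM4 library (32.5 TPM) was smaller than the spread of MDM4, and that from MDM2 (8.61 TPM) to FAS (7.65 TPM) was smaller than the spread of MDM2, so the order of these pairs is not settled. After knockdown MDM4 had the highest mean of the 7, 39.8 TPM, and SESN2 had 25.9 TPM. The middle gene of all those tested had a mean of 14.2 TPM over the 4 libraries, and SESN2 and MDM4 were the 2 of the 7 genes above the middle.

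Of the p53 regulators, MDM2 did not pass the test. MDM2 (ENSG00000135679) is at chr12:68808177-68845544, plus strand (hg38, as for all gene positions here). Its level was 8.61 and 11.8 TPM in the controls and 11.7 and 11.0 TPM in the knockdown. Both knockdown libraries lay between the control libraries, so the groups overlapped. The log2FC was 0.16 (SE 0.162, limma adjusted p = 0.468), with a 95% confidence interval from -0.25 to 0.56 that still holds changes in either direction. The value rested on the control libraries, since the log2FC was -0.05 without the first sh-NC library and 0.36 without the second. MDM2 shares 785 exonic bases with a long noncoding RNA gene on the opposite strand (ENSG00000257181) and 439 with a processed pseudogene on the same strand (ENSG00000256664), both not analysed here. It shares 133 with CPM on the opposite strand, and CPM had 14.4 and 11.6 TPM in the controls and 21.3 and 21.4 TPM in the knockdown. Since the handling of strand is not stated, reads in these parts may be assigned to either gene.

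MDM4 rose slightly. MDM4 (ENSG00000198625) is at chr1:204516379-204558120, plus strand. Its level was 29.3 and 32.5 TPM in the controls and 39.3 and 40.3 TPM in the knockdown, so the groups did not overlap. The mean went from 30.9 ± 2.20 TPM to 39.8 ± 0.736 TPM (SD, n = 2 each), 1.29 times the control. The log2FC was 0.36 (SE 0.073, limma adjusted p = 0.0119), which is inside the fold limit. The ratio of MDM2 to MDM4 was 0.293 and 0.364 in the controls and 0.298 and 0.274 in the knockdown. These ratios overlapped between the groups, and MDM4 was the more abundant of the pair in every library.

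AEN was the gene called lower. AEN encodes an exonuclease that is induced by p53 and acts on DNA and RNA. It (ENSG00000181026) is at chr15:88621337-88632281, plus strand. AEN had 18.0 and 16.9 TPM in the controls and 8.92 and 7.75 TPM in the knockdown. The groups were far apart compared with the gap within each. The mean fell from 17.4 ± 0.768 TPM to 8.34 ± 0.825 TPM (SD, n = 2 each), which left 47.9% of the control. The log2FC was -0.98 (SE 0.112, limma adjusted p = 0.00149), and 1.90% of all genes tested had a lower value. Over the alternatives in scaling, filter, pseudocount, block and libraries left out, it stayed between -1.11 and -0.89 and passed the test in each. The exons of AEN overlap no other annotated gene. Its relative ISG20, an interferon-induced exonuclease whose gene starts 3389 bases past the end of AEN, went the other way, from 1.07 and 0.855 TPM to 2.39 and 2.44 TPM (log2FC 0.80, limma adjusted p = 0.0231). ISG20L2, another relative, had a log2FC of -0.06 (limma adjusted p = 0.372).

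ZMAT3 was the gene called higher. ZMAT3 (ENSG00000172667) encodes a zinc finger RNA-binding protein that is a direct p53 target and affects splicing and RNA stability. It is at chr3:178960121-179072215, minus strand. ZMAT3 had 1.37 and 1.38 TPM in the controls and 3.29 and 2.95 TPM in the knockdown. The control libraries were nearly equal and both knockdown libraries lay above them. The mean rose from 1.37 ± 0.00705 TPM to 3.12 ± 0.245 TPM (SD, n = 2 each), 2.28 times the control, while the log2FC of TPM + 1 was 0.80 (SE 0.185, limma adjusted p = 0.0180), since the added 1 weighs on a gene this low. With a pseudocount of 0.1 it was 1.13. The call was the least firm of the pair. It was lost after quantile normalization, with a log2FC of 0.51 (limma adjusted p = 0.0709). It was also lost with any single library left out, with limma adjusted p = 0.0649 and 0.0591 without the first and the second sh-NC library, and limma adjusted p = 0.0944 and 0.0594 without the first and the second sh-ANP32B library. The direction was the same in all of these. The exons of ZMAT3 overlap no other annotated gene.

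**Figure D2:**
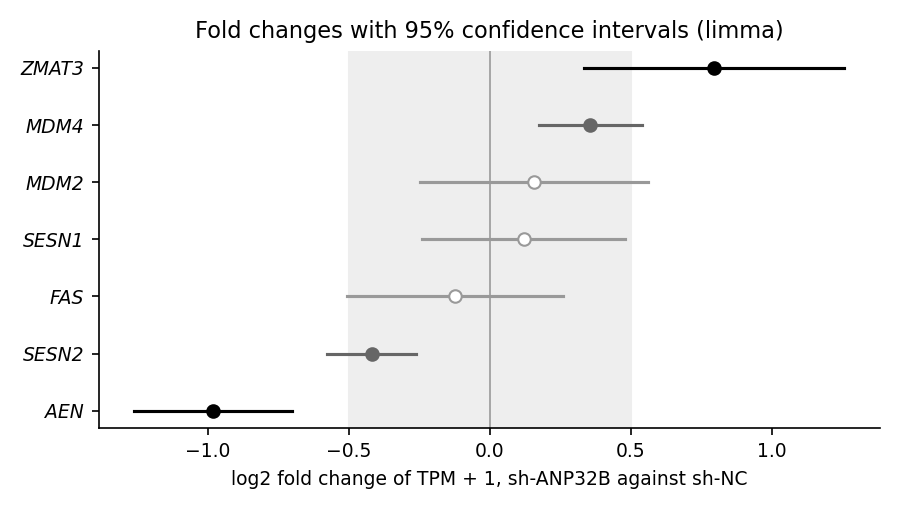
Log2 fold changes of TPM + 1, sh-ANP32B against sh-NC, with 95% confidence intervals from limma for the 7 genes; filled points passed the adjusted p of 0.05, black ones were also beyond the fold limit of 0.5, and the grey band marks that limit. AEN at -0.98 and ZMAT3 at 0.80 lie outside the band, SESN2 at -0.42 and MDM4 at 0.36 lie inside it, and the intervals of MDM2, SESN1 and FAS cross 0.

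The sestrins are stress-induced proteins that hold back the growth kinase complex mTORC1 through the GATOR complexes, and SESN2 also senses leucine. SESN2 fell after ANP32B knockdown. SESN2 (ENSG00000130766) is at chr1:28259518-28282491, plus strand. Its level was 35.4 and 34.4 TPM in the controls and 25.9 and 25.8 TPM in the knockdown. Replicates were close in both groups and the groups did not overlap. The mean went from 34.9 ± 0.641 TPM to 25.9 ± 0.060 TPM (SD, n = 2 each), 74.1% of the control. The log2FC was -0.42 (SE 0.063, limma adjusted p = 0.00408), inside the fold limit as deposited and beyond it, at -0.51, after median-of-ratios scaling.

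SESN1 did not pass the test. SESN1 (ENSG00000080546) is at chr6:108984309-109094846, minus strand. Its level was 5.69 and 5.67 TPM in the controls and 5.73 and 6.82 TPM in the knockdown. The first knockdown library was barely above the controls and the second was higher. The log2FC was 0.12 (SE 0.144, limma adjusted p = 0.537), with a 95% confidence interval from -0.24 to 0.48, and it was -0.08 after quantile normalization. SESN1 shares 363 exonic bases with a long noncoding RNA gene on the opposite strand (ENSG00000271730), so its value is uncertain there.

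SESN3, the remaining sestrin and not one of the 9 genes, rose from 1.79 and 1.49 TPM to 8.32 and 7.19 TPM (log2FC 1.73, limma adjusted p = 8.92e-04). The sum of the 3 sestrins was 42.8 and 41.6 TPM in the controls and 40.0 and 39.8 TPM in the knockdown. SESN2 made up 82.5% and 82.8% of that sum in the controls and 64.8% and 64.8% in the knockdown. The share of SESN3 was 4.17% and 3.58% in the controls and 20.8% and 18.1% in the knockdown. Both knockdown sums thus lay slightly below both control sums, and the makeup moved from SESN2 to SESN3. A change in the sum was not tested.

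FAS encodes the death receptor for Fas ligand. FAS (ENSG00000026103) is at chr10:88953813-89029605, plus strand. Its level was 7.65 and 6.85 TPM in the controls and 5.88 and 7.33 TPM in the knockdown. The second knockdown library lay between the control libraries, so the groups overlapped. The log2FC was -0.12 (SE 0.153, limma adjusted p = 0.548), with a 95% confidence interval from -0.51 to 0.26, and it was 0.01 without the first sh-ANP32B library. FAS shares 1899 exonic bases with a long noncoding RNA gene on the opposite strand (ENSG00000286116), which was not analysed here. It shares 387 with ACTA2 on the opposite strand and 166 with STAMBPL1 on the same strand. STAMBPL1 was called lower, with 9.30 and 9.53 TPM against 5.72 and 5.65 TPM, and reads of FAS in the shared parts are uncertain.

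**Figure D3:**
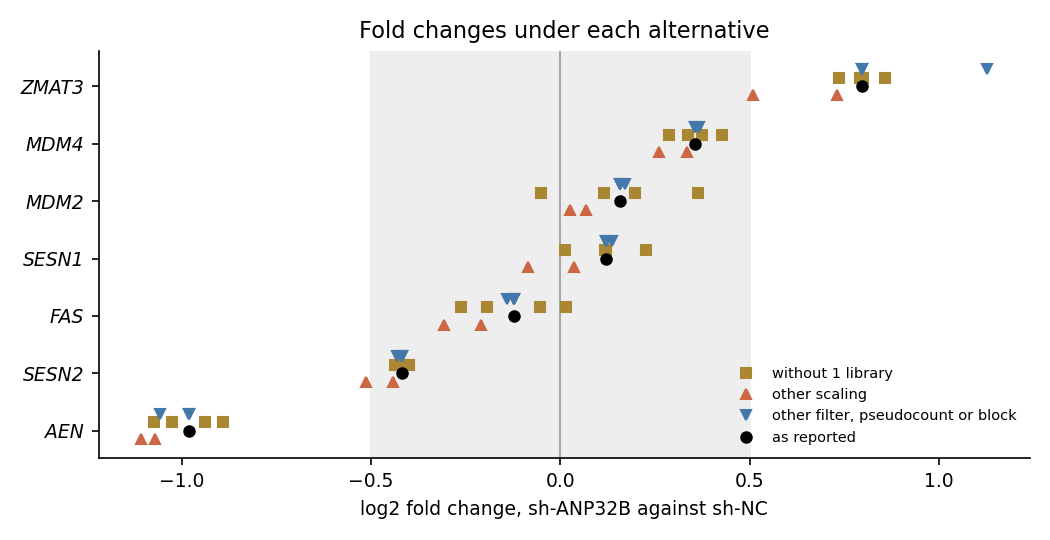
Log2 fold changes of the 7 genes as reported (black circles) and under each alternative: with 1 library left out, with another scaling, and with another filter, pseudocount or a replicate block. AEN stayed between -1.11 and -0.89, whereas the values of MDM2, SESN1 and FAS lie on both sides of 0.

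The promoters of the 7 genes were searched for the consensus decamer that p53 binds as a building block of its response elements. RefSeq (GRCh38.p14) gives 15 windows for them, from 250 bases before to 50 bases after a transcription start, and some windows of 1 gene overlap. The decamer, which reads the same on both strands, was in 3 of the 15 windows, 1 each of AEN, SESN1 and FAS, and it was in 6.63% of all 35116 windows of this length. The sequences before the start are shown for AEN, which fell and holds the decamer, for SESN1, which holds it and did not pass the test, and for SESN2 and ZMAT3, which moved in opposite directions and hold none. That of MDM2 is the start in its first intron, which is known as its p53-responsive promoter. Those of SESN1, ZMAT3 and FAS also belong to starts inside the annotated genes, and the sequences at their other starts are not shown. Each is written 5′ to 3′ on the strand of the gene, and capitals mark the decamer.
AEN, chr15:88621090-88621339, plus strand: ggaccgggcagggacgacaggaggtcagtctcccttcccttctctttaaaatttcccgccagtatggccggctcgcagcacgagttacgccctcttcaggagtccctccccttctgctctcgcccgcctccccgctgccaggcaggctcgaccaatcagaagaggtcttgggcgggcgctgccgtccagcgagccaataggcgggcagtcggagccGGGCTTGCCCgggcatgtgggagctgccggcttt
SESN1, chr6:109008989-109009238, minus strand: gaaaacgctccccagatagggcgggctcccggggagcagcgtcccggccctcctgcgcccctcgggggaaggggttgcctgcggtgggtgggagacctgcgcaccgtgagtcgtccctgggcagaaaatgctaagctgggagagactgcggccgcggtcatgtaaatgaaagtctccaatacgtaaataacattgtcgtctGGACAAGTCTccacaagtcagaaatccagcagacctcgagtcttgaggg
SESN2, chr1:28259268-28259517, plus strand: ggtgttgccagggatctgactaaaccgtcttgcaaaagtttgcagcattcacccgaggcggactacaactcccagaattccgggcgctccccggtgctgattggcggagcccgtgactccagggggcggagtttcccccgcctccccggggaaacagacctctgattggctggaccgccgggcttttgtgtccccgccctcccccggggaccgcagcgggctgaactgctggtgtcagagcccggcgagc
ZMAT3, chr3:179069343-179069592, minus strand: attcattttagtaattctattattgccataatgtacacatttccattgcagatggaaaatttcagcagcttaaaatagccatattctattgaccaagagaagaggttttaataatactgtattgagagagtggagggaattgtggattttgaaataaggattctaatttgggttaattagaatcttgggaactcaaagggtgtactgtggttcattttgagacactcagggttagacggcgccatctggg
MDM2, chr12:68808767-68809016, plus strand: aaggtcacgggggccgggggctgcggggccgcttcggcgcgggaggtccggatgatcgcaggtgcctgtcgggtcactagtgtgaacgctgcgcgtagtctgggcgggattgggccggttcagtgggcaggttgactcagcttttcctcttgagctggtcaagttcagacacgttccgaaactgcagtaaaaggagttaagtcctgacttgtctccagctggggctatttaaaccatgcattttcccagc
FAS, chr10:88991299-88991328, plus strand: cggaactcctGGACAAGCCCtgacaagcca
The decamer began 34 bases before the start in AEN and 49 bases before it in SESN1. In FAS it began 122 bases before the start, and only the bases around it are shown. Sequences that differ from the consensus by a base were not counted, and nothing outside the windows was searched. The MDM2 sequence shown holds such near matches, ggtcaagttc among them. Its lack of an exact match therefore does not mean that it lacks p53 sites. CACGTG, the E-box letters that MYC binds and that read the same on both strands, was in 1 of the 15 windows, that of AEN, from 9 bases past the start, and in 7.26% of all windows. These matches describe the sequence and no binding was measured. The decamer was found in AEN, which fell, and in SESN1 and FAS, which did not pass the test. It was not found in the windows of SESN2, which fell, of MDM2, which did not pass the test, or of ZMAT3 and MDM4, which rose. A link between the decamer and the changes was not tested.

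**Figure D4:**
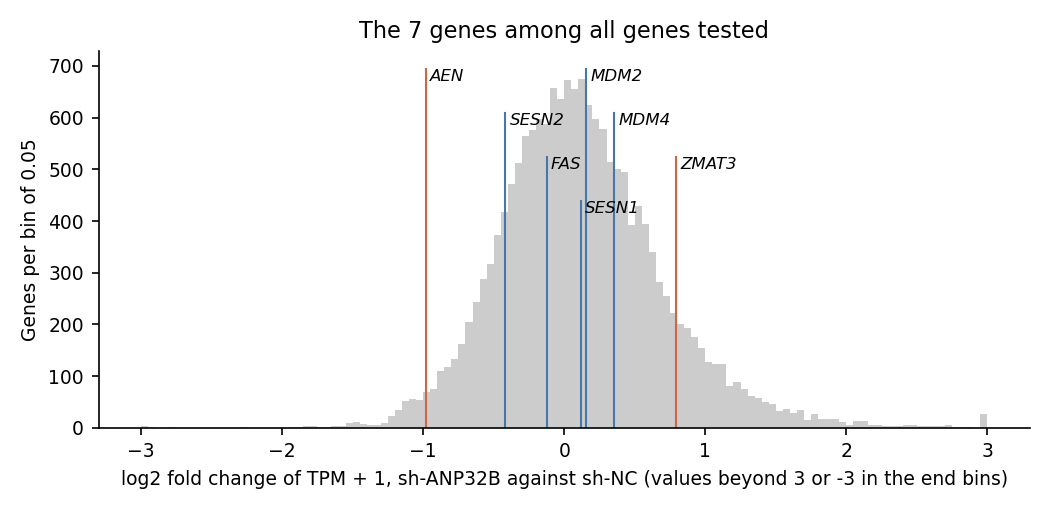
Histogram of the log2FC values of all 16937 genes tested, with lines for the 7 genes; orange lines are the genes called lower or higher and blue lines the others. AEN lies in the lower tail, with 1.90% of genes below it, and ZMAT3 lies within the upper part, with 88.6% below it.

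Other genes of the pathway were described by lists chosen from general knowledge, with earlier results of these data known. Their counts are therefore not independent of the data. Among 21 regulators of p53 that were tested, 2 were called higher and 3 were called lower, beside 17.9% and 10.1% of all genes. After quantile normalization 2 were called higher and 4 lower, and after median-of-ratios scaling 2 and 5. The median log2FC of the regulators was -0.21. ATM, the kinase that signals DNA breaks, rose from 38.1 and 39.2 TPM to 67.9 and 68.0 TPM (log2FC 0.80, limma adjusted p = 2.76e-04), and HIPK2, a kinase that phosphorylates p53, rose with a log2FC of 0.90. The checkpoint kinases fell. CHEK1 went from 49.9 and 61.7 TPM to 18.9 and 18.3 TPM (log2FC -1.53, limma adjusted p = 3.50e-04), and CHEK2 had a log2FC of -0.70. TP73, a relative of p53, had a log2FC of -0.70 (limma adjusted p = 0.00921). RPL11 and RPL5, ribosomal proteins that bind MDM2, had log2FC values of -0.38 and -0.45, past the test and inside the fold limit. After median-of-ratios scaling RPL5 was called lower, at -0.55.

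The p53 targets of arrest and repair were split, with 2 of 13 called higher and 3 lower, beside 17.9% and 10.1% of all genes. Their median log2FC was -0.01. CDKN1A, the p21 inhibitor of cyclin-dependent kinases, rose from 8.56 and 7.15 TPM to 16.5 and 20.2 TPM (log2FC 1.13, limma adjusted p = 0.00215). BTG2, an antiproliferative gene, rose from 3.83 and 3.93 TPM to 26.5 and 26.6 TPM (log2FC 2.50, limma adjusted p = 9.93e-05). The genes called lower were GADD45B (-0.68), the nucleotide excision repair gene DDB2 (-0.61) and FANCC of the Fanconi pathway (-0.56). CCNG1, the most abundant of those not called, had a log2FC of -0.23 (limma adjusted p = 0.0525). CDKN1A shares 146 exonic bases with DINOL on the opposite strand.

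Of 8 apoptosis targets tested, 1 was called higher and 2 were called lower, beside 17.9% and 10.1% of all genes. Their median log2FC was -0.11. APAF1, the core of the apoptosome, was called higher (0.57), although not after median-of-ratios scaling (0.48). PMAIP1 (NOXA) and SIVA1 were called lower, at -0.66 and -0.53. TNFRSF10B, a death receptor like FAS, passed the test inside the fold limit at 0.33, and BAX had a log2FC of 0.06 (limma adjusted p = 0.496). Among the partners of FAS, 2 of 9 tested were called higher, beside 17.9% of all genes. CFLAR, which blocks caspase-8 at the receptor, went from 26.4 and 28.1 TPM to 61.0 and 53.8 TPM (log2FC 1.05, limma adjusted p = 4.32e-04). CASP8 had a log2FC of 0.55, which fell to 0.45 and inside the fold limit after median-of-ratios scaling. BID, which carries the signal to mitochondria, was at -0.29.

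Of 11 targets of metabolism and autophagy tested, 5 were called higher and none was called lower, beside 17.9% and 10.1% of all genes, and their median log2FC was 0.29. They were the lysosomal fucosidase FUCA1 (2.71), the polyamine enzyme SAT1 (1.49), SUSD6 (1.10), the autophagy regulator DRAM1 (0.89) and the proline pathway enzyme ALDH4A1 (0.69). APOBEC3C, not called, was at -0.20.

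Around the sestrins, the median log2FC of 18 genes tested was 0.13. Against 17.9% and 10.1% of all genes, 5 of the 18 were called higher and none was called lower. Beside SESN3 these included the arginine sensor CASTOR1 (1.05) and the Rag GTPases RRAGB (0.58) and RRAGC (0.54), which recruit mTORC1 to the lysosome. The count depended on the scaling, with 4 higher and 1 lower after quantile normalization and 3 higher and 2 lower after median-of-ratios scaling, where MIOS and SEH1L of GATOR2 were called lower at -0.57 and -0.58. RRAGB was not called after either of these scalings, at 0.41 (limma adjusted p = 0.0708) and 0.495, and RRAGC was not called after the latter, at 0.44. SEC13 and NPRL3, the most abundant of those not called, were at 0.14 and -0.25.

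SESN2 is also a target of ATF4, the transcription factor of the integrated stress response. Of 12 genes of that response tested, 5 were called lower and 2 were called higher, beside 10.1% and 17.9% of all genes. Their median log2FC was -0.43. ATF4 fell from 384 and 409 TPM to 230 and 216 TPM (log2FC -0.83, limma adjusted p = 2.46e-04). DDIT4 (-1.43), PHGDH (-1.18), PSAT1 (-0.86) and SLC3A2 (-0.58) fell as well. ASNS (0.61) and SLC7A11 (0.51) were called higher, though neither was called after quantile normalization, at 0.45 and 0.30. SESN2 was at -0.42, while this list ran from -1.43 to 0.61. A link between the falls of ATF4 and SESN2 was not tested.

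SESN3 is a known target of the FOXO factors, which act in starvation and low growth signalling. Of 12 FOXO factors and targets tested, 7 were called higher and none was called lower, beside 17.9% and 10.1% of all genes. The count called higher was 6 after quantile normalization and 5 after median-of-ratios scaling. The median log2FC of the list was 0.52, and 4 of the 12 were below 0. The 3 with the largest change were PIK3IP1 (1.66), TXNIP (1.21) and KLF2 (1.04). TXNIP went from 103 and 103 TPM to 241 and 241 TPM. CDKN1B and IRS2, the most abundant of those not called, were at -0.28 and -0.20, and both passed the test inside the fold limit.

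The relatives of the 9 genes by sequence were also followed. For the 6 relatives tested, the median log2FC was 0.78, beside 0.12 for the 7 genes. Against 17.9% and 10.1% of all genes, 4 of the 6 were called higher and none lower. Beside SESN3 and ISG20 these were TP53INP2, the relative of TP53INP1 with a role in autophagy, and PHLDA2, a relative of PHLDA3. TP53INP2 rose from 3.96 and 5.01 TPM to 39.9 and 37.6 TPM (log2FC 2.86, limma adjusted p = 1.16e-04). PHLDA2 had 6.03 and 4.95 TPM against 9.68 and 10.2 TPM (log2FC 0.76, limma adjusted p = 0.00822), and PHLDA1 had a log2FC of 0.61 that did not pass the test (limma adjusted p = 0.101). ISG20 was not called after quantile normalization (0.51, limma adjusted p = 0.0907). In each of the lists with none called lower by limma, no gene tested lay below the fold limit of -0.5, whatever its p.

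**Figure D5:**
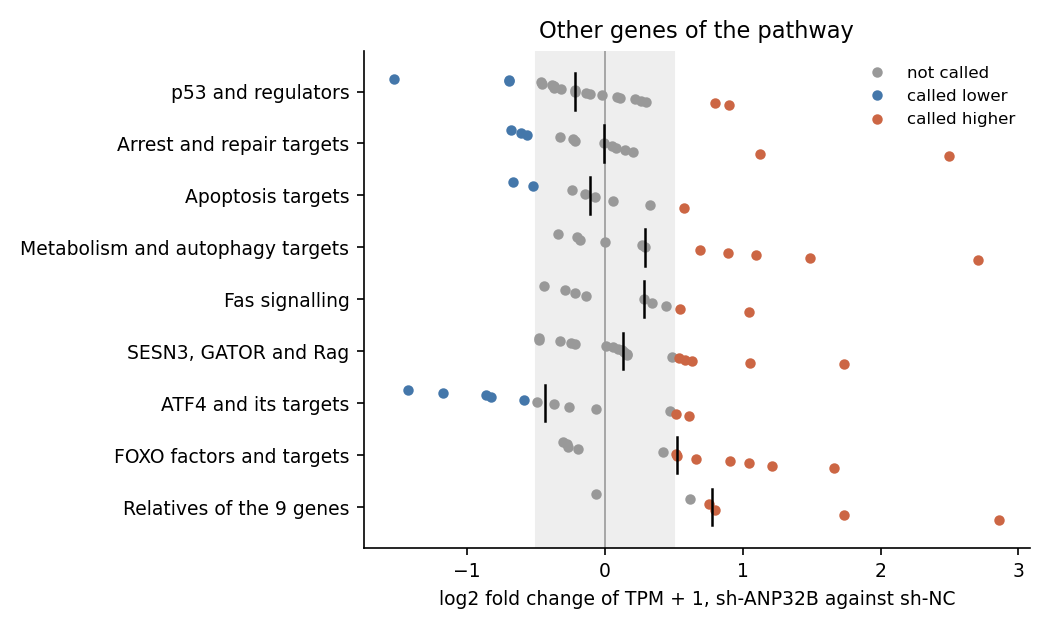
Log2 fold changes of TPM + 1 for the genes of each list, sh-ANP32B against sh-NC; each point is 1 gene, orange and blue points were called higher and lower, grey points were not called, black bars are medians, and the grey band is the fold limit of 0.5. The p53 regulators and the arrest and apoptosis targets have points called in both directions, the ATF4 list has its median at -0.43 and the FOXO list at 0.52.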

How the data were processed

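RNA of MV4-11 cells was sequenced for 2 sh-NC and 2 sh-ANP32B libraries. Reads were aligned by the authors with HISAT2 to the hg38 build (version 2.0.5, from the submitters' processing notes), and the deposited values are TPM for each gene. The unit was read from the values, which sum to between 997271 and 998546 per library. The tool, annotation and strand setting behind the TPM are not given in the sources used here, and the study's DESeq2 test needs counts, so it was not repeated.

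Of 18885 identifiers, 17290 were matched to symbols. The groups were compared with limma 3.58.1 in R 4.3.3 (lmFit, then eBayes with its trend option) on log2(TPM + 1), without a block. The fit was first tested on simulated data. The columns of the knockdown libraries carry the mark S3 and were matched to their titles by group and number. Positions come from GENCODE 44. Python 3.11.15 with pandas 2.3.3 and matplotlib 3.10.9 was used for annotation and plots.

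The 9 genes and the lists were chosen with earlier results of these data known. Beside the 9 genes, the text names ANP32B, CDKN1A, the relatives, and from each list the genes called (the 3 with the largest change where more than 5 were called in a direction) and up to 2 genes of at least 50 TPM that were not called, except that a few genes of the lists are not reported here. CPM, STAMBPL1, DINOL, ACTA2, MIOS and SEH1L were named outside this rule, for an exon overlap or a change of call. Of the general lists, those of monocytes, AML lines and other lineages serve as checks of the cell type. Exon overlaps were checked for the 9 genes, ANP32B and CDKN1A. With 2 libraries per group, an exact permutation test of 1 gene cannot go below a two-sided p of 0.33, and the adjusted p-values depend on the spread limma borrows from other genes.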

Additional observations from a re-analysis of the deposited data

How the results depend on the processing

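The alternatives were a replicate block, 2 other filters, a pseudocount of 0.1, 2 other scalings, 3 other call rules and each library left out in turn. The fold changes of ANP32B, AEN, SESN2 and MDM4 kept their direction and passed the test under every alternative run for them, with adjusted p from limma up to 0.0494 for MDM4. Same-numbered libraries did not deviate together (correlation -0.0232), and with the replicate number as a block 1 of the 7 genes was called in each direction, as without it. The count of the 7 genes called higher was 1 as reported, 0 after quantile normalization, 0 at a fold limit of 1 and 2 with no fold limit, and it was 0 with any library left out. At an unadjusted p below 0.05 from limma it was 1 after quantile normalization and with any library left out, and 0 at a fold limit of 1. Where a library is left out, the lone library of its group is assumed to vary like those of the other group. The count called lower was 1 as reported, 2 after median-of-ratios scaling, 2 with no fold limit, 0 at a fold limit of 1, and 1 with any library left out. Over all genes, 1136 were called higher and 273 lower at a fold limit of 1, and 3342 were called lower with no fold limit. With a library left out, 2208 to 2731 were called higher and 1510 to 1686 lower. Of the 3 genes that did not pass the test, SESN1 had a log2 fold change of -0.084 after quantile normalization. With a library left out, MDM2 ranged from -0.051 (without the first sh-NC library) to 0.36 (without the second), and FAS from -0.26 (without the second sh-ANP32B library) to 0.015 (without the first). The cause was not tested. The median of all genes moved from 0.08 to -0.04 after quantile normalization, and lower genes made up 36.1% of the calls as reported, 50.2% after quantile normalization and 49.0% after median-of-ratios scaling.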
